A study of Mus musculus with 4 samples.

Results

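Smad1 ChIP–seq peaks were examined at 5 genes whose noncoding RNAs are made by RNA polymerase III (Pol III) and are not tRNAs, Rn7sk, Rmrp, Rpph1, Rny1 and Rny3, among the 55450 genes of the GENCODE M21 annotation of mm10. The 5 genes were selected on the DMSO peak lists themselves, as genes with a site that both peak callers listed, so their DMSO calls define them and carry no test. All peaks of the 5 deposited lists within 5 kb of a gene body were then collected. The chromatin was that of embryoid bodies (EBs), clusters of differentiating cells grown from the GFP-Bry ES cell line, which reports Brachyury expression with GFP and is labelled as strain C57BL/6. In both groups the EBs were reaggregated and collected on day 4 after 24 h of treatment, with DMSO, the vehicle, in one and with 10 µM IWR-1, an inhibitor of Wnt signalling, in the other. Each group had 1 Smad1 ChIP library and 1 input library, 4 libraries in all and from a single ES cell line, so a difference between the treatments has no replicate check and is given here without a test.

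Pol III transcribes short, structured RNAs. Most of its genes, such as those of tRNAs, 5S ribosomal RNA and the 7SL RNA, carry control elements inside the transcribed sequence, whereas the gene group that includes U6, Rn7sk, Rmrp, Rpph1 and the Y RNA genes is driven from upstream, by a TATA box and a proximal sequence element that the complex SNAPc binds, and stops at a run of T. 7SK RNA, from Rn7sk, holds the elongation factor P-TEFb in an inactive complex. Rmrp and Rpph1 encode the RNA components of the ribonucleases MRP and P, which process ribosomal RNA and tRNA precursors, and the Y RNAs, from Rny1 and Rny3, bind the proteins Ro60 and La. Smad1 is a transcription factor through which BMP receptors act on chromatin.

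Rn7sk lies at chr9:78175303-78175633 on the minus strand and is 331 bp long. Rmrp, on the minus strand, occupies chr4:43492788-43493058 (271 bp), and a second entry of the annotation for the same gene runs over chr4:43492783-43493063. Rpph1 is found at chr14:50807449-50807767, also on the minus strand, and is 319 bp long. Rny3, of 102 bp, at chr6:47781624-47781725 on the plus strand, and Rny1, of 112 bp, at chr6:47788069-47788180 on the minus strand, face each other with 6343 bp between them.

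The 70 bases before each gene start are printed because the Smad1 peaks cover them and because Pol III promoters of this group lie there. They were read 5′ to 3′ on the gene's strand from GRCm38 as NCBI distributes it, the same assembly as mm10. Capitals mark matches to a core of the proximal sequence element, written ACCNTNA or else written TNNAAAG, within -80 to -41 of the gene start. They also mark a TATA form, which was TATAAA in the usual form, TTATAA when shifted by a base, or TATATA as a repeat, within -38 to -16.
Rn7sk (chr9:78175634-78175703, minus strand): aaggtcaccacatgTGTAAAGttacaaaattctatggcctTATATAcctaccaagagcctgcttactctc
Rmrp (chr4:43493059-43493128, minus strand): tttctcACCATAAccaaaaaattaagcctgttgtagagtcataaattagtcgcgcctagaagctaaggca
Rpph1 (chr14:50807768-50807837, minus strand): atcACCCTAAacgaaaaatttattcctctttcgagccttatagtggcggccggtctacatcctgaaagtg
Rny1 (chr6:47788181-47788250, minus strand): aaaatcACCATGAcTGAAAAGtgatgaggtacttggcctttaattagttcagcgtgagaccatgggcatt
Rny3 (chr6:47781554-47781623, plus strand): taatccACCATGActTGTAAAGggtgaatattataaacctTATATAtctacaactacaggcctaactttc

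ACCNTNA stood at -64 in Rmrp, Rny1 and Rny3 and at -67 in Rpph1, and TNNAAAG at -56 in Rn7sk and Rny1 and at -55 in Rny3. At least 1 of the cores was therefore present before all 5 genes, while 7.54% of all 55413 gene starts with a full window held one there on the gene's strand, and ACCNTNA, present before 4 of the 5, was found there at 2.55%. A TATA form in its window was found before Rn7sk and Rny3 only, in both as TATATA at -30. Both elements together preceded 2 of the 5 genes and 0.233% of all gene starts. The octamer ATGCAAAT occurred, on either strand, within the 250 bp upstream of Rmrp, from -223, and of Rpph1, from -100, against 1.96% of all such windows. The B box, the internal element of tRNA genes, was found in the 250 bp upstream of none of the 5 genes and in 0.106% of windows. Because this element lies inside genes, which these windows do not cover, its absence there says nothing on the type of promoter. These matches are letters in a window and do not show that a factor bound.

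The calls were read from 5 peak lists, and the labels of the lists do not all name the library that their coordinates point to. Every interval of the list of 10466 common DMSO sites was an interval of a QESEQ list of 26070 peaks and overlapped a peak of a MACS list of 15927 peaks, and these were taken as the DMSO lists. By label, this QESEQ list belongs to the IWR-1 input, and the MACS and common lists to the DMSO input. A further QESEQ list, whose label names the IWR-1 ChIP, had 16261 peaks. The other MACS list had 7815 peaks. Its label names the DMSO ChIP, and elimination alone gives it to IWR-1. It is called the second MACS list throughout, and each call that rests on it is named. Since read counts are not part of the lists, depth per peak is unknown. The MACS score of a peak, the authors' own value, ranked peaks within a list and was not compared between lists.

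In DMSO, all 5 genes had a peak over the gene body in the common list, in the MACS list and in the QESEQ list, as their selection requires. Of all annotated genes, 8.39% overlapped a common site, 11.1% a DMSO MACS peak and 16.4% a DMSO QESEQ peak. For genes of at most 500 bp, which the 5 genes are, the shares were 0.872%, 1.31% and 2.11%. With IWR-1, the QESEQ list held a peak on 3 of the 5 bodies, those of Rn7sk, Rmrp and Rny1, beside 12.0% of all genes and 1.53% of genes of at most 500 bp. The second MACS list held a peak on all 5 bodies, beside 6.21% of all genes and 0.774% of short genes. Rpph1 and Rny3 were thus the 2 genes without an IWR-1 QESEQ peak, and their only calls outside DMSO came from the list whose label names DMSO. The shares above are of unselected genes, whereas the 5 genes were chosen for a common DMSO site. Of all 10466 common sites, the IWR-1 QESEQ list overlapped 3875 and the second MACS list 2701. By annotated type, 0.868% of 1383 snRNA genes and 2.14% of 562 genes typed as miscellaneous RNA overlapped a common DMSO site.

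At each gene the peak spanned the whole gene body and its upstream promoter. The body was covered over 100% of its length in each list that called it. For Rn7sk, the DMSO MACS peak was 781 bp wide, began 242 bp before the gene start and ended 208 bp past the gene end. The Rmrp peak of that list was the widest of the 5, at 854 bp, and reached 291 bp upstream and 292 bp past the end. At Rpph1 it was 620 bp wide, with 220 bp upstream and 81 bp past the end. Rny1 had the narrowest, 467 bp, with 223 bp upstream and 132 bp downstream. At Rny3 the width was 579 bp, with 261 bp before the start and 216 bp beyond the end. In this list the upstream edges of the 5 genes lay within 71 bp of each other and the distances past the gene end differed by up to 211 bp, whereas in the common list the same spreads were 108 bp and 119 bp.

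All 5 of these peaks were wider than the DMSO MACS median of 439 bp, at the 60.8th percentile of width for Rny1 and between the 90th and 98.5th percentiles for the others. Their share of the upstream 250 bp was 100% at Rmrp and Rny3, 96.8% at Rn7sk, 89.2% at Rny1 and 88% at Rpph1. The common sites, which are the QESEQ intervals, were narrower at every gene, from 416 bp at Rny1 to 702 bp at Rn7sk, and covered between 61.2% (Rmrp) and 100% (Rny3) of the upstream 250 bp. In the second MACS list the widths ran from 467 bp at Rny1 to 691 bp at Rn7sk.

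**Figure D1:**
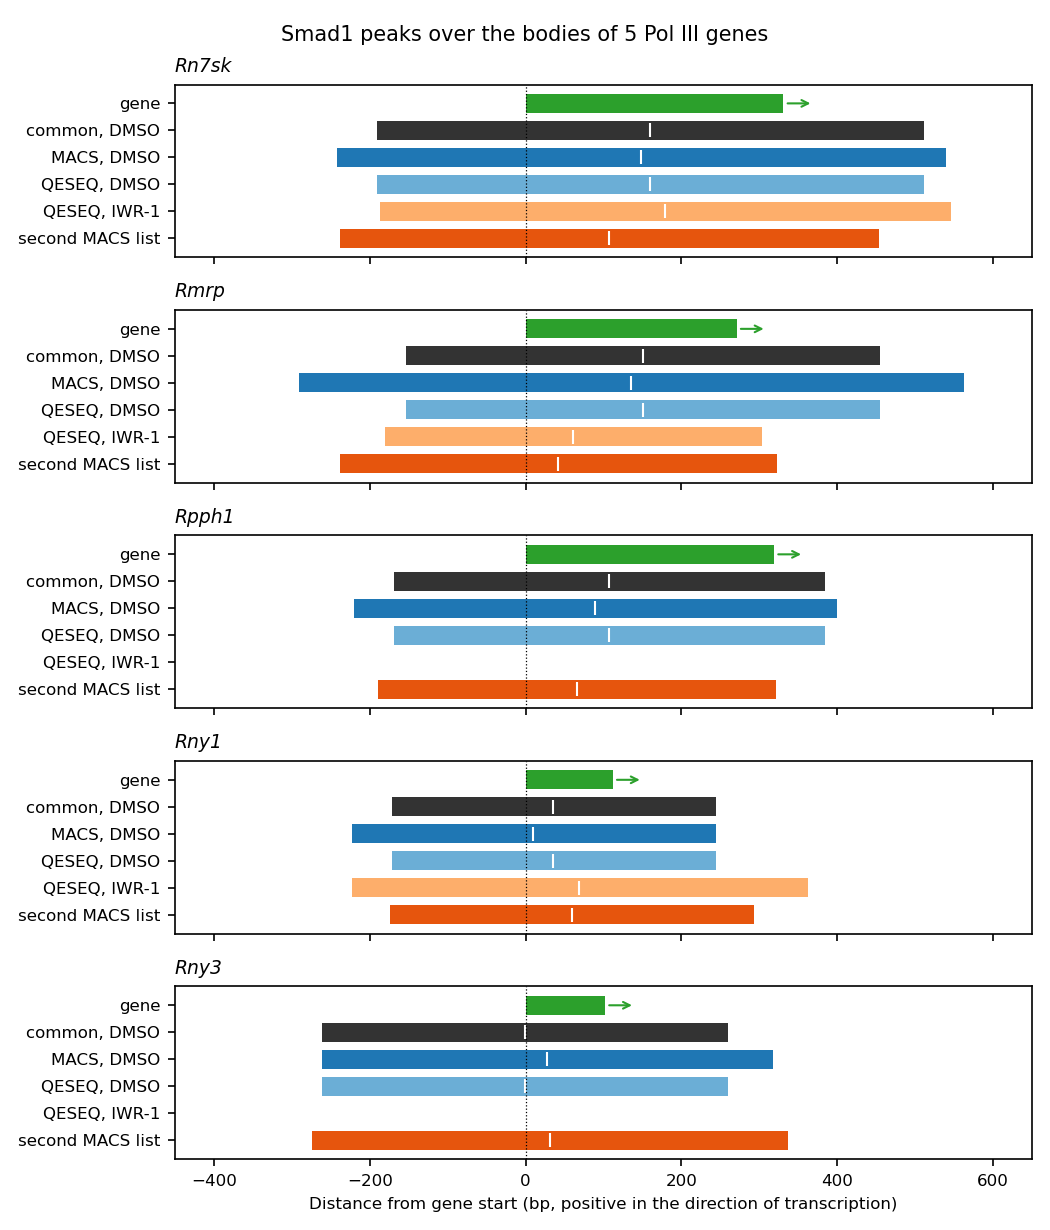
Peaks over the bodies of the 5 Pol III genes, with distance from the gene start in bp on the horizontal axis and 1 row per peak list. Green bars are gene bodies, coloured bars are peaks and white ticks are peak centres; Rpph1 and Rny3 have no bar in the IWR-1 QESEQ row, and all DMSO bars run across the whole gene body.

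Over all lists, the centres of the peaks on the gene bodies lay between 1 base before the gene start and 179 bp downstream of it. In the DMSO MACS list the centre was 148 bp downstream of the start at Rn7sk, 135.5 bp at Rmrp, 89.5 bp at Rpph1, 28 bp at Rny3 and 10 bp at Rny1, so all 5 centres fell inside the gene. In this list and the common list the 2 Y RNA genes, the shortest of the 5, had the centres nearest to the start. In the common list 4 of the 5 centres were inside the gene, from 35.5 bp at Rny1 to 159.5 bp at Rn7sk, and that of Rny3 was at -1 bp, 1 base before the gene start. Centres in the second MACS list ranged from 31 bp at Rny3 to 107 bp at Rn7sk, and the 3 centres of the IWR-1 QESEQ list from 61 bp at Rmrp to 179 bp at Rn7sk. In both of these lists the centre at Rmrp was nearer to the start than that at Rny1, at 42 bp against 59 bp and at 61 bp against 69 bp. Because a called interval is not a summit, these centres do not place the binding within the interval.

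The end of each gene is shown for the T run at which Pol III stops, since the peaks also extend past it. The last 10 bases of the gene and the following 30 are printed, with the first run of at least 4 T in capitals.
Rn7sk (chr9:78175273-78175312, minus strand): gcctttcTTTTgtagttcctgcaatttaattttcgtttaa
Rmrp (chr4:43492758-43492797, minus strand): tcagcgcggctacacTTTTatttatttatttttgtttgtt
Rpph1 (chr14:50807419-50807458, minus strand): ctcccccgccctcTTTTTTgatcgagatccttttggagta
Rny1 (chr6:47788039-47788078, minus strand): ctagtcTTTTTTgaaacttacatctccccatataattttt
Rny3 (chr6:47781716-47781755, plus strand): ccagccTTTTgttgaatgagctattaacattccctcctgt
The first T run was 4 bases long at Rn7sk, Rmrp and Rny3 and 6 bases long at Rpph1 and Rny1, and began between -3 and 6, counted from the last base of the gene as 0. The DMSO MACS peak and the common site contained the whole of this window at all 5 genes. The second MACS list contained it at 4, the exception being Rpph1, where its peak ended 3 bp past the gene.

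In the DMSO MACS list, 4 of the 5 genes scored near the top. Rn7sk had a score of 727.42, rank 150 of 15927 and the 99.1st percentile. The score of Rny1 was 426.43 (rank 278), that of Rmrp 343.78 (rank 345) and that of Rny3 265.57 (rank 425), which placed them at the 98.3rd, 97.8th and 97.3rd percentiles. Rpph1 stood apart, with a score of 79.97, rank 3977 and the 75th percentile. For scale, the 293 of 403 nuclear tRNA genes with a DMSO MACS peak had a median at the 99th percentile. No interval can be given for the score of a single peak, so the order among the 4 upper genes has no error attached.

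In the second MACS list, of 7815 peaks, Rn7sk ranked 204 (97.4th percentile), Rmrp 363 (95.4th) and Rny1 477 (93.9th). Rny3 was lower, at rank 1410 and the 81.9th percentile. Rpph1 ranked 6585, at the 15.7th percentile, with a score of 52.95 where the lowest in the list was 50. Rn7sk was thus first and Rpph1 last of the 5 in both lists, and the genes without an IWR-1 QESEQ peak, Rpph1 and Rny3, were the lowest of the 5 in each.

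**Figure D2:**
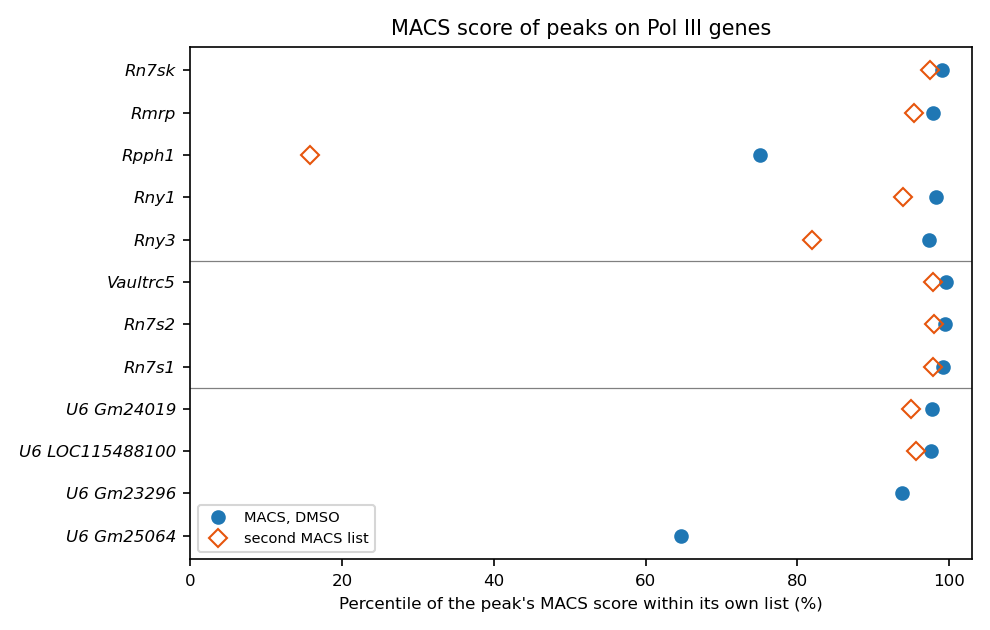
Percentile of each peak's MACS score within its own list, in percent, for the 5 genes, for vault and 7SL RNA genes and for U6 copies, with circles for the DMSO MACS list and diamonds for the second MACS list. Rpph1 lies at 75 and 15.7, below the other 4 genes in both lists, and a missing diamond means no peak in the second list.

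Near-copies of the 5 genes elsewhere in the genome carried no call. A search of the assembled chromosomes for stretches of at least 80% identity over at least 80% of a gene's length found 15 for Rny1, 3 for Rpph1, 1 for Rn7sk and none for Rmrp or Rny3. The closest matched the gene at 92.7% (Rny1), 89.2% (Rn7sk) and 86% (Rpph1). None of the 19 copies overlapped a peak in any of the 5 lists. Of genes of at most 500 bp, between 0.774% and 2.11% were called, depending on the list. With 19 copies, an absence of calls therefore does not set them apart from short genes in general.

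Long runs of A or T, present in most Smad1 sites of these EBs, were rare at the 5 genes. The common site of Rn7sk held a run of 8 A, and the longest runs of either base at the other 4 were of 6. Thus 1 of the 5 sites held a run of at least 7 A or T, against 90.3% of all 10466 common sites. The share among common sites at other Pol III genes or at gene starts is not given here. Whether the lack of runs is particular to the 5 genes was not tested. Motifs that Smad proteins are known to bind were searched on both strands over the whole common site, and with 5 sites their counts do not set the genes apart from the background. GGAGCC was in 1 of the 5 sites, at Rpph1, beside 17.4% of all common sites, and CAGACA in 1 of the 5, at Rn7sk, beside 32%. GGCGCC was in none of the 5 common sites, beside 2.66%. It did occur at -188 of Rpph1, outside the common site, whose edge was at -169, but inside the wider peaks of the DMSO MACS list and the second MACS list. The GC content was 58.8% at Rpph1, 52.6% at Rmrp, 44.2% at Rn7sk, 37.4% at Rny3 and 35.1% at Rny1, and the median over all common sites was 41.5%. The 5 sites lay on both sides of that median.

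Starts of other genes fell in or near 3 of the 5 peaks, which cannot be told apart from the Pol III genes by these calls. At Rpph1, the start of Ccnb1ip1, a protein of meiotic recombination, lay 35 bp inside the gene on the same strand, and that of Parp2, a poly(ADP-ribose) polymerase, 74 bp upstream on the other strand, both within the peak of every list that called it. At Rmrp, a start of Ccdc107 on the other strand lay 158 bp inside the gene, within all 5 peaks. The start of C920006O11Rik, a noncoding gene on the other strand, lay 281 bp upstream of Rn7sk, outside the peaks but within 1 kb. No other gene began within 1 kb of the peaks on Rny1 and Rny3.

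Within 5 kb of the 5 genes there were 7 common sites, 7 DMSO MACS peaks, 10 DMSO QESEQ peaks, 5 IWR-1 QESEQ peaks and 6 peaks of the second MACS list. Rn7sk and Rmrp had no peak other than the one on the body. Rny1 had 1 further peak, of the DMSO QESEQ list alone, centred at -4302.5 bp. Rpph1 had a second DMSO site centred 4657 bp downstream of its start in the MACS list, with a score of 72.68 and rank 5606, and neither the IWR-1 QESEQ list nor the second MACS list held a peak there. The farthest peak inside the window was 4402 bp from a gene body (Rny3, DMSO QESEQ), and the nearest outside it was 6094 bp from Rny3 (IWR-1 QESEQ, on the body of Rny1 and so counted there).

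The strongest peak of the Y RNA region was on neither Y RNA gene. It was centred at -3369.5 bp from Rny3 in the DMSO MACS list (chr6:47777781-47778728, 948 bp), with a score of 892.56 and rank 101, above Rny3 itself at rank 425. It was also a common site and had peaks in the IWR-1 QESEQ list, centred at -3386.5 bp, and in the second MACS list, at rank 63 against rank 1410 for Rny3. No GENCODE gene overlapped the interval, and it held 20 copies in a row of the unit GAAGGA, 120 bp in all. Closer to Rny3, QESEQ alone listed a peak centred at -1016 bp in DMSO and at -1119 bp with IWR-1, so that in the IWR-1 QESEQ list Rny3 had upstream peaks without one on its body.

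**Figure D3:**
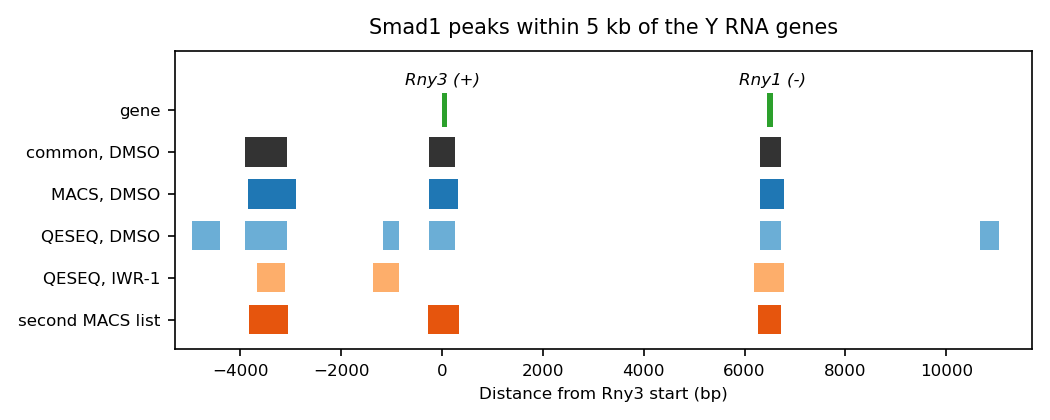
Peaks within 5 kb of Rny3 and Rny1, with distance from the Rny3 start in bp on the horizontal axis and 1 row per list. All 5 lists have a peak centred between -3488 and -3369.5 bp and one over Rny1, and the IWR-1 QESEQ row has none over Rny3.

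Other Pol III genes were taken from a list that holds the 7SL, 5S, U6, vault and BC1 RNA genes under their GENCODE symbols, 187 in all. Of these, 19 had a common DMSO site (10.2%), 24 a DMSO MACS peak (12.8%) and 49 a DMSO QESEQ peak (26.2%). The IWR-1 QESEQ list called 41 (21.9%) and the second MACS list 27 (14.4%). All the listed genes are shorter than 500 bp. For genes of at most 500 bp the shares were 0.872%, 1.31%, 2.11%, 1.53% and 0.774%, in the same order. The shares of all genes, given above, include longer bodies. Of the 19 genes with a common site, 13 belonged to the 5S array on chr8 described below. Vaultrc5, which encodes vault RNA, had the highest DMSO MACS score of the list, 1084.86 at rank 58. Rn7s2 (911.99, rank 97) and Rn7s1 (785.35, rank 128), which encode the 7SL RNA of the signal recognition particle, came next. These 3 genes were called in all 5 lists, with second MACS ranks of 164, 157 and 163. Both belong to a family of similar 7SL copies, so reads could be shared between copies. Rn7s6, Bc1 and Rnu6, named after their values were seen, complete the 6 genes that are not 5S genes. Of these 6, the common list called 4, the DMSO MACS, DMSO QESEQ and IWR-1 QESEQ lists 5, and the second MACS list 4. Rnu6, the gene that carries the U6 symbol, was called in none.

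The 5S genes divided by position. An array on chr8:123538786-123622046 held 42 annotated 5S genes with only 10 distinct sequences, so a read cannot always be placed on 1 copy. QESEQ listed a peak on 40 of the 42 in DMSO and on 34 with IWR-1. MACS listed one on 16 in DMSO and on 19 in the second list. Of the 139 5S genes elsewhere, the 5 lists called between 2 and 4 (1.44% to 2.88%). The share of genes of at most 500 bp called was 0.774% to 2.11%, so the 139 were near that background. The array was bounded after the calls were seen, by gaps of at most 10 kb between genes, and how reads with several matches were handled is not given in the sources used here.

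U6 RNA, part of the catalytic core of the spliceosome, has many annotated copies, and the calls fell on few of them. RefSeq places 712 U6 copies on the assembled chromosomes, and 5 had a proximal sequence element core and a TATA form in the upstream windows used above. A common DMSO site overlapped 4 of these 5 and 1 of the other 707 copies. The IWR-1 QESEQ list likewise called 4 of the 5, and 4 of the 707. The DMSO QESEQ list called 4 and 10, the DMSO MACS list 4 and 1, and the second MACS list 2 and 1. As a share, 80% of copies with both elements had a common site (95% exact binomial interval 28.4 to 99.5, which covers counting error over copies only) against 0.141% of the others (0.00358 to 0.786). The intervals take copies as independent, which they are not. Of the 4 called copies with both elements, LOC115488100 (chr12:52603788-52603894) and Gm23296 (chr12:52604485-52604591) are neighbours, so the intervals are too narrow. This division was made after the U6 calls were seen and is a description. The copies are similar in sequence, and how reads that match several of them were placed is part of the same unknown.

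The 70 bases before the 4 called copies with both elements are printed in the same way as those of the 5 genes, to let the elements be compared.
Gm24019 (chr10:79909125-79909194, plus strand): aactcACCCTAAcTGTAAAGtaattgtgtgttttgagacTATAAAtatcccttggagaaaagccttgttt
LOC115488100 (chr12:52603718-52603787, plus strand): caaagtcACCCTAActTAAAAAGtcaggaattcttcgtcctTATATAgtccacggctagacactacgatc
Gm23296 (chr12:52604592-52604661, minus strand): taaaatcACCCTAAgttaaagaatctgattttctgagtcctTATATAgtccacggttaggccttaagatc
Gm25064 (chr9:63133213-63133282, plus strand): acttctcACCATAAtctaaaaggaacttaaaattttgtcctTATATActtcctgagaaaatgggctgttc
A core and a TATA form were required of these copies, so their presence is not a result. The core ACCNTNA was present in all 4. In the DMSO MACS list Gm24019 scored 315.86 (rank 367) and LOC115488100 scored 301.51 (rank 384), near Rmrp. Gm23296 scored 124.24 (rank 982) and Gm25064, the lowest, 72.62 (rank 5620), below Rpph1. The 2 higher copies were also those with a peak in the second MACS list. The fifth copy with both elements, Gm23520, had TNNAAAG and a TATA form but no ACCNTNA, and no list called it. Among the copies without both elements, the one with a common site was Gm24204. It had TNNAAAG but neither ACCNTNA nor a TATA form. Among 16 copies of U6atac, the U6 counterpart of the minor spliceosome, 1 was called, Gm25541, in all 5 lists, at DMSO MACS rank 46. It had both cores and no TATA form of the 3 searched.

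**Figure D4:**
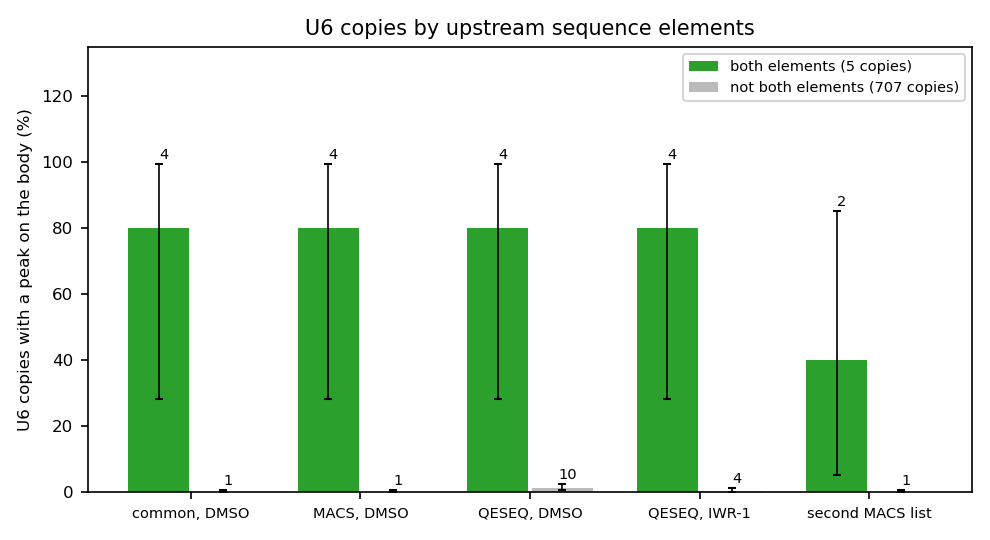
Share of U6 copies with a peak on the body, in percent, in each list, for the 5 copies with both upstream elements (green) and the 707 without (grey). Numbers are copies called and error bars are 95% exact binomial intervals for counting error; the green bars stand at 80% in 4 lists and 40% in the second MACS list.

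The snRNA and U3 genes that RNA polymerase II transcribes from upstream elements of a similar kind were called in part. Of 14 such genes, 3 had a common DMSO site, Rnu5g, Rnu3b1 and Rnu3b4, of the U5 and U3 RNAs. The share with a common site was 0.872% of genes of at most 500 bp and 0.868% of annotated snRNA genes. Their DMSO MACS scores were 82.47 (rank 3558), 53.42 (rank 13706) and 53.62 (rank 13591), so that 2 of them stood near the lowest score of the list, 50. With IWR-1, QESEQ called Rnu5g alone, and the second MACS list called none, beside 1.53% and 0.774% of genes of at most 500 bp. A difference between this list and the 5 genes was not tested, since the 5 were chosen for their calls.

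Genes for the protein partners of these RNAs and for the Pol III machinery were read at their starts. Of 32 genes of the machinery, 3 had a common DMSO site within 1 kb of the start, beside 2.88% of all protein-coding genes. These were Polr3e (DMSO MACS score 356.55, rank 330) and Polr3a (103.98, rank 1589), which encode subunits of Pol III, and Polr1d (289.91, rank 395), whose product is shared with RNA polymerase I. The DMSO QESEQ list held peaks at 5 of the machinery genes, these 3, Crcp and Polr3f. The share of protein-coding genes was not counted for that list. With IWR-1, QESEQ listed peaks at Polr3e, Polr3a, Polr1d and Pou2f1, beside 3.43% of protein-coding genes, and none at Crcp or Polr3f. Pou2f1 encodes the octamer-binding protein Oct-1. The second MACS list held peaks at Polr3e and Polr1d, beside 1.93%. No subunit of SNAPc or TFIIIB on the list had a peak at its start in any of the 5 lists. Beside shares of 1.93% to 3.43% of protein-coding genes, the absence of calls at so few genes does not set them apart. None of the 7 genes for 7SK partners and P-TEFb or of the 11 for proteins of the ribonucleases P and MRP had a common site there. The same held for the 2 for Ro60 and La, again beside 2.88% of protein-coding genes. The only calls among these 20 genes were Hexim2, an inhibitor of P-TEFb, in the DMSO QESEQ list, and Rpp14, a subunit of ribonuclease P, in the DMSO MACS list (rank 4765) and the second MACS list (rank 7538). For the DMSO QESEQ and DMSO MACS lists the share of protein-coding genes was not counted.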

How the data were processed

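Smad1 ChIP and input chromatin were sequenced from 1 library each per treatment. Per the methods, the authors aligned reads to mm10 and, after PCR duplicates had been taken out, called each ChIP with MACS and with QESEQ, keeping common peaks. The submitters' processing notes name CASAVA 1.8, Bowtie2 2.1.0 and MACS 1.0.1. Whether the input served as control is not given in the sources used here. The deposited lists hold positions, and those of MACS also the deposited score of each peak. Starts were read as counted from 0 and are given from 1. From these, overlaps of at least 1 bp with GENCODE M21 bodies, distances from gene starts, and ranks and percentiles of score within a list were computed. No test was made, because each group had 1 ChIP library.

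The 5 genes and all gene lists were chosen with earlier results of these data known. Named were the 5 genes, at most 3 genes of each other list by DMSO MACS score, all genes of short call lists, and genes starting within 1 kb of a peak. U6 copies came from RefSeq, and near-copies from blastn 2.17.0. Python 3.11.15, scipy 1.17.1, pysam 0.24.0 and matplotlib 3.10.9 were used. Simulated data were used to test the overlap and motif searches, and all 10000 genes and 10000 sequences were classed as planted. Alternatives covered the overlap rule, window, score minimum, gene models, chromosomes and starting base. The symbols Rn7sl1, Rnu6atac and Rn4.5s were not matched in GENCODE and were not used here.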

Additional observations from a re-analysis of the deposited data

How the results depend on the processing

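No paired analysis was possible because each group had 1 ChIP library and no result comes from a test. The calls on the 5 genes in the DMSO lists stayed at 5 of 5 under each overlap rule and with RefSeq models, and the 3 IWR-1 QESEQ calls became 4 within 5 kb. At a MACS score of at least 100, 4 genes stayed in the DMSO MACS list and 3 in the second MACS list, other Pol III genes went from 24 and 27 to 12 in each, and polymerase II snRNA genes from 3 to 0 in the DMSO list. With a 10 kb window the peaks near the 5 genes numbered 11 (common), 12 (DMSO MACS), 17 (DMSO QESEQ), 10 (IWR-1 QESEQ) and 11 (second MACS), and with 1 kb the DMSO QESEQ count was 6. In the same order, the share of all genes called was 13.6%, 18.1%, 26.8%, 19.2% and 10.2% within 5 kb, and 0.17%, 0.271%, 0.431%, 0.341% and 0.159% when a peak had to cover 50% of the body. Within 5 kb, other Pol III genes called numbered 48 (common, 19 on the body), 58 (DMSO MACS, 24 on the body) and 52 (second MACS, 27 on the body), and polymerase II snRNA genes 5, 5, 6, 2 and 1 in the order of the 5 lists. The median distance from centre to start was 107 bp with the common or QESEQ interval, 59 bp with the second MACS list and 93.5 bp with RefSeq models. For Rny3 alone the direction turned, to -1 bp with the common interval. The median share of the upstream 250 bp inside the peak was 68.8% with the common interval and 95.2% with the second MACS list. Classing U6 copies by ACCNTNA and a TATA form only, chosen after seeing the data, left 4 copies, and the counts called were 4 in 4 lists and 2 in the second MACS list. Depth per peak is unknown, and a missing call does not show that binding was absent. All statements on the second MACS list rest on its assignment by elimination.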
